A study of Mus musculus with 6 samples.

Results

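Immunoglobulin heavy chain variable genes (Ighv genes) are the 183 genes whose symbol in the deposited table starts with Ighv and a number, out of 56980 genes in all. They were measured by RNA-Seq in BM MSCs, the plastic-adherent stromal cells of bone marrow, and were grouped by the V family number that stands before the hyphen of the symbol, which gave 16 families. All cells came from female mice that underwent OVX, the removal of both ovaries, at 8 weeks of age, were treated with antibiotics, and then received FMT for 8 weeks. In the TranspCtrl group (3 samples) the feces came from sedentary OVX mice, and in the TranspExer group (3 samples) from exercised OVX mice. Flushed marrow was cultured for 7 days with washes, and no sorting step is described, so cells other than MSCs could remain in the dish. The sources do not say that the 3 samples of a group came from separate animals, and the p-values therefore measure only the spread between these samples, which may be technical.

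A heavy chain gene is put together in a developing B cell, which joins a variable (V), a diversity (D) and a joining (J) segment of the locus and so fixes the V segment that this cell and its descendants transcribe in front of a constant region. Plasma cells, the antibody-secreting descendants of B cells, reside in the marrow and hold very large amounts of this transcript. Stromal cells are not known to rearrange the locus, and V gene transcripts serve as a readout of B-lineage RNA and of the segments it uses. In bulk RNA, fewer cells of a type and less RNA per cell cannot be told apart.

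All 183 genes lie on the minus strand of chromosome 12, between positions 113572927 and 116010093 of GRCm38 (mm10), a stretch of 2.44 Mb, and all were found under the same identifier and symbol in the GENCODE M21 annotation. Of them, 113 are annotated as V genes and 70 as V pseudogenes. Family 1 is the largest, with 92 genes, followed by families 5, 8 and 2 with 21, 16 and 11. A V gene has a short leader exon and a V exon, which had 294 to 351 bases in the sequences used here. The V exon codes for the framework and the first hypervariable loops of the antibody. It ends shortly after the conserved cysteine that precedes the junction. The last 120 bases of the V exon are shown for the genes on which the results turn. These are the gene with the most counts in TranspCtrl and its family member, both leading genes of TranspExer, a gene with a like share in both groups, and a pair of family 8 genes that behaved differently. Sequences are from the GENCODE M21 transcripts, 5′ to 3′ on the coding strand, and capitals mark the codons for tyrosine, tyrosine or phenylalanine, and cysteine.
Ighv7-4: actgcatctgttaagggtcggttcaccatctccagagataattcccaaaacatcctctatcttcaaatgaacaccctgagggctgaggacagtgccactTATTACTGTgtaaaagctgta
Ighv7-3: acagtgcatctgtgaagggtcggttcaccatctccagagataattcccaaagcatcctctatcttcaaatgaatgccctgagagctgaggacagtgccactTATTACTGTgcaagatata
Ighv1-81: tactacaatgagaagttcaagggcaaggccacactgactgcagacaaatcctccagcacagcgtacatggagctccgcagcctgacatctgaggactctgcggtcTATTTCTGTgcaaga
Ighv1-34: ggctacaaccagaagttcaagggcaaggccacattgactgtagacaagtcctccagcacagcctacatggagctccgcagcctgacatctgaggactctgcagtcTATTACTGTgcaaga
Ighv1-55: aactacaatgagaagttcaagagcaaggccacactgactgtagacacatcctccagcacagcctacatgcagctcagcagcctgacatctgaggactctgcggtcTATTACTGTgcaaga
Ighv8-8: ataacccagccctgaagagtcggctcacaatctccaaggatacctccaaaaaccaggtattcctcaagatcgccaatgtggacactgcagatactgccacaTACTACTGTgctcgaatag
Ighv8-5: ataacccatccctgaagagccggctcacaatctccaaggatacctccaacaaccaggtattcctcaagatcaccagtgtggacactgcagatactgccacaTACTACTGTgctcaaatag

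On the minus strand these ends lie at chr12:114222788-114222907 for Ighv7-4, chr12:114153180-114153299 for Ighv7-3, chr12:115920279-115920398 for Ighv1-81, chr12:114851190-114851309 for Ighv1-34, chr12:115208095-115208214 for Ighv1-55, chr12:115294062-115294181 for Ighv8-8 and chr12:115067560-115067679 for Ighv8-5. The capitalised codons were found in the last 120 bases of 109 of the 113 V exons. Over the whole V exon, Ighv7-4 and Ighv7-3 were 93.7% identical, Ighv1-81 and Ighv1-34 85.5%, and Ighv8-8 and Ighv8-5 96.2%, whereas Ighv7-4 and Ighv1-81 shared 62.2% of aligned bases. Median identity was 84.4% between genes of the same family and 62.5% between families. Of the 78 genes tested for expression, 19 had another V gene with at least 97% identity, and 1 had an identical copy. Some V exons came from transcripts annotated with 1 exon, such as that of Ighv1-82, with 294 bases against 305 for Ighv1-80. Missing bases lower the identity of an end-to-end alignment, so identities of these genes can be too low and the 19 too few. Reads from such copies, and reads that carry somatic mutations, can be assigned to the wrong member, so counts of single genes are less certain than family sums. Of the values above 0, 50% to 56.3% were not whole numbers for Ighv genes in TranspCtrl samples, against 28.1% to 33.3% in TranspExer samples and 26.8% to 30.7% over all genes. Estimated counts are not whole where a read is shared out over more than 1 feature.

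The deposited values were estimated read counts, with totals of 17647638 to 21319166 per sample after rounding. The 3 values of a group are given in the order of its replicates 1, 2 and 3. Ighv counts summed to 43601, 17238 and 20503 in TranspCtrl, against 2750, 2704 and 2827 in TranspExer. TranspCtrl replicate 1 therefore stood apart from the other TranspCtrl samples. Values without it are given for the Ighv total and for counts of genes and families. For single genes they are not given, and TranspCtrl means of single genes can lean on this sample. Over genes outside the immunoglobulin loci, the chi-square per degree of freedom, which is about 1 for counting error alone, was 51.2 to 55.6 between this sample and the other TranspCtrl samples and 3.68 between those other samples. Among TranspExer samples it was 4.45 to 7.89, so no sample was a copy of another. A floor of 3 counts equalled 0.139 to 0.174 CPM (counts scaled to the library size after TMM normalization) and covers counting error only. The stromal list had a summed level of 12055 to 19721 CPM in TranspCtrl and 12845 to 14069 CPM in TranspExer, most of it from the collagen genes Col1a1 and Col1a2, whereas Lepr, Nt5e and Thy1 were at mean levels of 3.43 to 14.6 CPM. The median log2 fold change of its 10 genes was -0.54. Macrophage genes, among them Csf1r, the receptor for the growth factor of macrophages, with 882 ± 33 CPM and 928 ± 41.9 CPM (SD, n = 3), were expressed as well, so the samples were not stromal cells alone.

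The first question was whether the summed Ighv level differed between cells from recipients of sedentary and of exercised donors. The level was 2129, 885 and 953 CPM in TranspCtrl, and 144, 157 and 140 CPM in TranspExer. The groups did not overlap, and the lowest TranspCtrl sample was far above the highest TranspExer sample. In a fit on the whole table with all Ighv genes summed to 1 row, the level fell 9.0-fold in TranspExer, with a log2 fold change (log2FC) of -3.17 (SE 0.33, Benjamini-Hochberg adjusted p = 0.000425 by the quasi-likelihood test of edgeR). Without TranspCtrl replicate 1 the log2 fold change was -2.65.

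**Figure D1:**
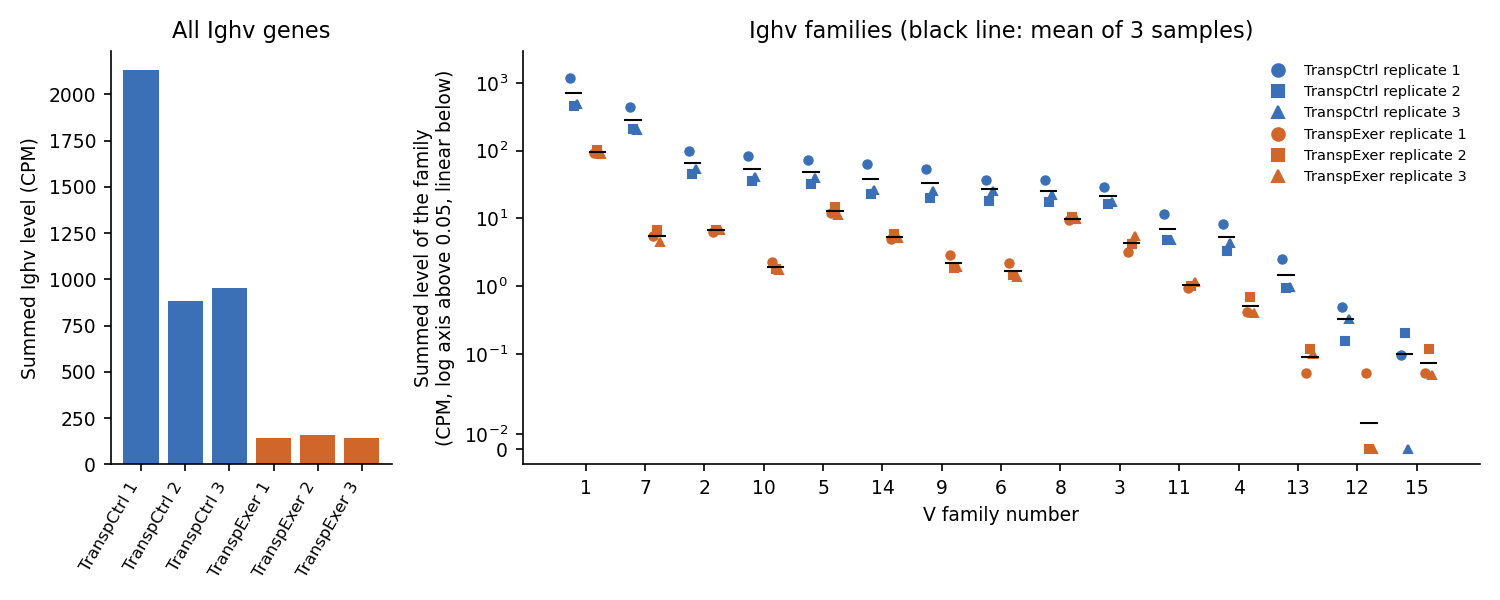
Left, summed Ighv level of each sample in CPM (1 bar per sample). Right, summed level of each of the 15 V families with a count, in CPM on an axis that is logarithmic above 0.05 and linear below, with 1 point per sample and a black line for the mean of 3 samples; in all families but 15 the TranspCtrl points lie above the TranspExer points.

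Single genes were tested next, with the thresholds that the study's methods set, 0.05 for the adjusted p-value and 2 for the fold change in either direction. Of the 183 genes, 61 had no count in any sample, 44 had counts but were too low to be tested, with at most 20 counts in a sample, and 78 were tested. All 78 were annotated as V genes. The 70 pseudogenes were never tested, 18 of them had any count, and together they held 0.0854% of Ighv counts in TranspCtrl and 0.108% in TranspExer. Of the 78 tested genes, 66 fell past both thresholds in TranspExer, where 5.28% of all 15190 tested genes did so, and 0 rose past them, against 3.5% of all tested genes. The filter on low counts asked for about 10 counts in each of 3 samples, and 28 of the 78 genes met this in TranspCtrl but not in TranspExer. These 28, of which 26 were among the 66, could enter only because they were higher in TranspCtrl, so their direction was set by entry. Of the 47 genes that met it in both groups, 40 fell past both thresholds and 1 had a positive log2 fold change. By DESeq2 the counts over all 78 were 67 and 0, and without TranspCtrl replicate 1 they were 63 and 0. The median log2 fold change of the 78 genes was -3.02, and that of all tested genes was -0.02. With the 8 genes at or under 3 counts in every TranspExer sample set to the floor, the median of the 78 was -2.79. The median was -2.47 for the 47 genes that met the filter in both groups, and -3.59 for the 28 that met it only in TranspCtrl. The log2 fold change was negative for 77 genes and positive for 1. CPM values of TranspExer lay below those of TranspCtrl without overlap for 72 of the 78, which held for 25.1% of all tested genes, and overlapped for the other 6. These counts of signs and of overlap include the 28 genes whose direction was set by entry. Over all tested genes, 52.4% did not overlap in either direction. When the fold change of 2 was tested within the model, 47 genes were called. Of the 66 genes, Ighv1-34, Ighv1-62-3 and Ighv3-6 were among the 19 lost in this way.

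**Figure D2:**
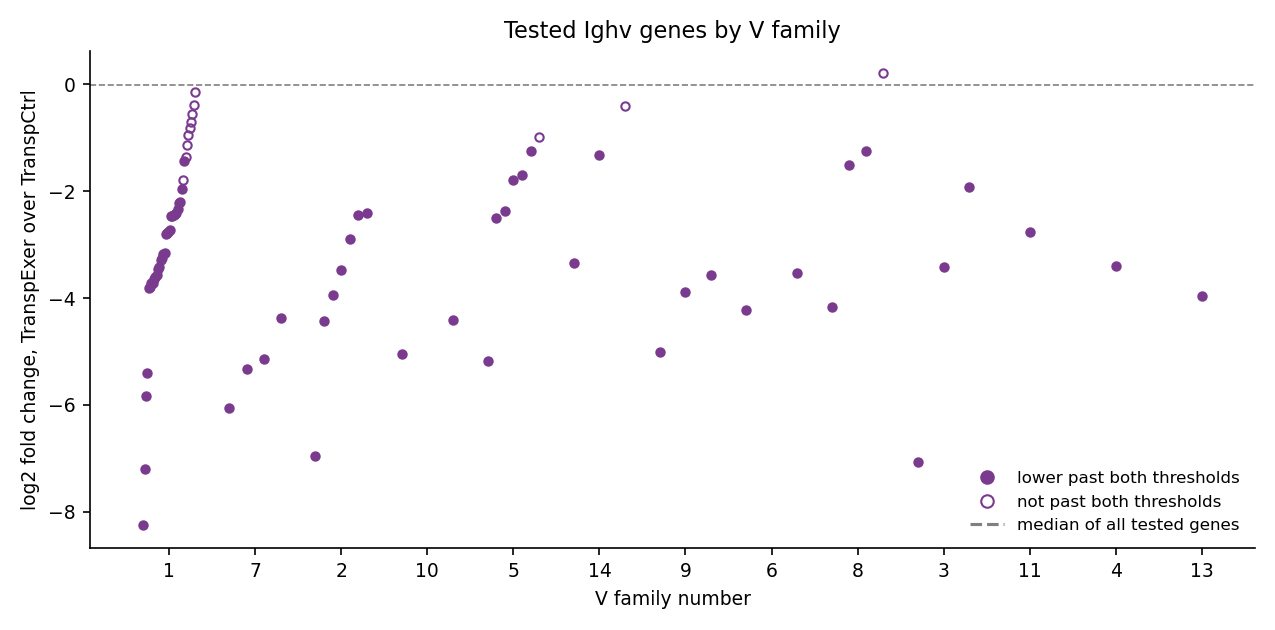
Log2 fold change (TranspExer over TranspCtrl, edgeR) of the 78 tested Ighv genes, by V family and ordered within a family; filled points passed both thresholds and open points did not. Family 7 lies between -6.05 and -4.37, while family 8 spans -4.16 to 0.21; the lowest points, of genes with 0 or 1 count in TranspExer, depend on the prior count of the fit.

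Family 7 held the gene with the most counts. Ighv7-4 (ENSMUSG00000076668, chromosome 12, 114222788 to 114223328) had 323, 149 and 131 CPM in TranspCtrl, and 3.19, 3.43 and 2.48 CPM in TranspExer. It fell from 201 ± 106 to 3.03 ± 0.492 CPM (SD, n = 3), a log2FC of -6.05, and in every TranspExer sample it was below all TranspCtrl samples. Its family member Ighv7-3 (ENSMUSG00000076652, chromosome 12, 114153180 to 114153644) had 112, 54.9 and 64.7 CPM in TranspCtrl and 1.94, 3.02 and 1.69 CPM in TranspExer. Its log2 fold change was -5.13 (SE 0.34, edgeR adjusted p = 7.3e-05), the smallest adjusted p-value of all Ighv genes. The other members, Ighv7-1 and Ighv7-2, fell too, with log2FC values of -4.37 and -5.32. Ighv7-2 was at or under 3 counts in every TranspExer sample, so its fitted value depends on the prior count. Ighv6-3 and Ighv10-3, the leading genes of families 6 and 10, had log2FC values of -4.22 and -5.05 (edgeR adjusted p = 0.000123 and 0.000208). By mean CPM over all 6 samples, which TranspCtrl dominates, the most abundant gene of each other tested family fell past both thresholds too. Apart from families 1 and 8, described further on, their log2FC values were -4.42 for Ighv2-5, -3.97 for Ighv13-2, -3.88 for Ighv9-3, -3.39 for Ighv4-1, -3.34 for Ighv14-3, -2.77 for Ighv11-2, -2.36 for Ighv5-17 and -1.93 for Ighv3-6. Ighv13-2 was at or under 3 counts in every TranspExer sample, so its fitted value depends on the prior count. By CPM in TranspExer alone, the most abundant genes of families 1, 2 and 8 were others, namely Ighv1-81 and Ighv8-8, which did not pass both thresholds, and Ighv2-9-1, with a log2FC of -2.90. Ighv12-3 and Ighv15-2, the most abundant of their families, were too low to be tested, with 21 and 9 counts over all samples.

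Family 1 held most of the other abundant genes. Ighv1-55 (ENSMUSG00000095589, chromosome 12, 115208095 to 115208591) had 123, 49.5 and 48.5 CPM in TranspCtrl and 7.59, 8.19 and 6.86 CPM in TranspExer, with a log2FC of -3.29 (SE 0.39, edgeR adjusted p = 0.000744). Ighv1-19 and Ighv1-72 had log2FC values of -3.17 and -3.42. These genes fell about as much as the Ighv total. Ighv1-34 (ENSMUSG00000093955, chromosome 12, 114851190 to 114851660) had 91.4, 32.9 and 31.6 CPM in TranspCtrl and 9.42, 10.5 and 9.64 CPM in TranspExer, a smaller drop of 2.40 on the log2 scale (edgeR adjusted p = 0.00417). Ighv1-81 (ENSMUSG00000094689, chromosome 12, 115920279 to 115920712) had 27.5, 13.9 and 14.3 CPM in TranspCtrl and 10.4, 10.3 and 10.8 CPM in TranspExer. The groups did not overlap, but the log2FC of -0.82 (SE 0.26, edgeR adjusted p = 0.0429) did not reach the fold threshold.

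The 5 genes with the most negative log2 fold change were Ighv1-62-3, Ighv1-11, Ighv3-5, Ighv2-7 and Ighv7-4. Ighv1-62-3 had 76, 19 and 24 counts in TranspCtrl and 0 counts in each TranspExer sample. It was thus at least 12.1-fold lower, with the TranspExer level set to the floor of 3 counts per library. This bound leans on TranspCtrl replicate 1, with 3.71 CPM against 0.975 and 1.12 CPM in replicates 2 and 3. The V exon of Ighv1-62-3 is 99% identical to that of Ighv1-72, which had 101, 92 and 117 counts in the TranspExer samples. Ighv2-7 had 26, 10 and 12 counts in TranspCtrl and 0 counts in each TranspExer sample, which makes it at least 4.87-fold lower on the same basis; without TranspCtrl replicate 3 it no longer passed both thresholds. Ighv1-11 and Ighv3-5 had 217 and 198 counts over the TranspCtrl samples and 1 count each over the TranspExer samples. With the TranspExer level set to the same floor, these genes were at least 22.1-fold and 20.2-fold lower. The ratio for Ighv1-11 was 199 (95% exact counting interval 35.4 to 7908), and that for Ighv3-5 was 182 (32.3 to 7219). These intervals cover counting error only.

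At the other end, 11 tested genes missed the adjusted p threshold, 8 of them in family 1 and 1 each in families 5, 8 and 14. Ighv8-8 (ENSMUSG00000104452, chromosome 12, 115294062 to 115294504) was the only tested gene with a positive log2 fold change. There were 3 without TranspCtrl replicate 1 and 2 without TranspExer replicate 2. It had 6.1, 3.34 and 4 CPM in TranspCtrl and 5.07, 5.4 and 5.07 CPM in TranspExer. The TranspCtrl samples lay on both sides of the TranspExer samples, and the log2 fold change was 0.21 (SE 0.22, edgeR adjusted p = 0.501). Ighv8-5 (ENSMUSG00000102364, chromosome 12, 115067560 to 115068002), whose V exon is 96.2% identical to that of Ighv8-8, had 16.2, 5.54 and 8.97 CPM in TranspCtrl and 0.419, 0.523 and 0.745 CPM in TranspExer. It fell by 4.16 on the log2 scale (SE 0.48, edgeR adjusted p = 0.00068). Ighv1-9 had 92, 44 and 44 counts in TranspCtrl and 51, 48 and 50 counts in TranspExer, with a log2 fold change of -0.15 (edgeR adjusted p = 0.735).

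Summed by family, 13 of the 16 families were high enough to be tested, and all 13 fell past both thresholds. Of the rows of that table, 5.0% were lower past the same thresholds. Families 4 and 13 had 8, 12 and 8 counts and 1, 2 and 2 counts in the TranspExer samples. These families met the filter on low counts only through TranspCtrl, so their direction was set by entry. Family 16, with 1 gene, had no count, and families 12 and 15 were too low to be tested, with at most 10 and 4 counts in a sample. Log2 fold changes of the 13 families ranged from -5.70 to -1.38. Family 7 had 448, 209 and 201 CPM in TranspCtrl and 5.44, 6.68 and 4.52 CPM in TranspExer, a log2FC of -5.70 (SE 0.38, edgeR adjusted p = 6.66e-05). Families 10 and 6 followed with -4.80 and -4.02. Family 1 had 1182, 460 and 488 CPM in TranspCtrl and 93.6, 101 and 90.7 CPM in TranspExer, a log2FC of -2.91 (SE 0.36, edgeR adjusted p = 0.000904). The smallest changes among the 13 were those of family 5, with -1.93, and family 8, with 37.5, 17.2 and 21.9 CPM in TranspCtrl, 9.36, 10.3 and 9.89 CPM in TranspExer and a log2FC of -1.38 (SE 0.27, edgeR adjusted p = 0.00671). Without TranspCtrl replicate 1, 12 families passed both thresholds, and 11 passed when the fold change of 2 was tested within the model.

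Family usage, the share of a family in the Ighv counts of its sample, describes composition rather than level. The shares of a sample add up to 100%, so a lower share of 1 family raises those of the others. Shares did not overlap between the groups for 12 of the 15 families with a count, of which 7 were higher and 5 lower in TranspExer. Beside this count stands the 52.4% of all tested genes whose CPM values did not overlap between the groups. A level is unlike a share, so this percentage is no chance level for the 12. With 3 samples against 3, the exact two-sided permutation test cannot give a p-value under 0.1, which all 12 reached, and after Benjamini-Hochberg adjustment over families it was 0.125. Without Ighv7-4, shares of 11 families did not overlap. Family 7 made up 21%, 23.6% and 21.1% of Ighv counts in TranspCtrl and 3.78%, 4.25% and 3.22% in TranspExer. Family 1 made up 55.5%, 51.9% and 51.2% in TranspCtrl and 65.1%, 64.6% and 64.6% in TranspExer, and was the most used family in every sample. The lower share of family 7 by itself raises that of family 1. Family 5 was used more in TranspExer, with 8.63% ± 0.677 against 3.74% ± 0.422 (SD, n = 3). Family 8 also had a higher share, with 6.71% ± 0.287 against 2.00% ± 0.273 (SD, n = 3). Usage of family 10 was lower, at 1.32% ± 0.219 against 4.10% ± 0.238 (SD, n = 3). Families 3, 11 and 14 also had higher shares in TranspExer, and families 6 and 9 lower ones. Families 13 and 15 were apart too, but on at most 2 counts in a TranspExer sample. Shares of family 2, which made up 5.15% ± 0.513 in TranspCtrl and 4.52% ± 0.248 in TranspExer (SD, n = 3), overlapped, as did those of families 4 and 12. The 95% Wilson intervals of single shares had half-widths of at most 0.746 percentage points in TranspCtrl and 1.8 in TranspExer, where there were fewer counts.

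**Figure D3:**
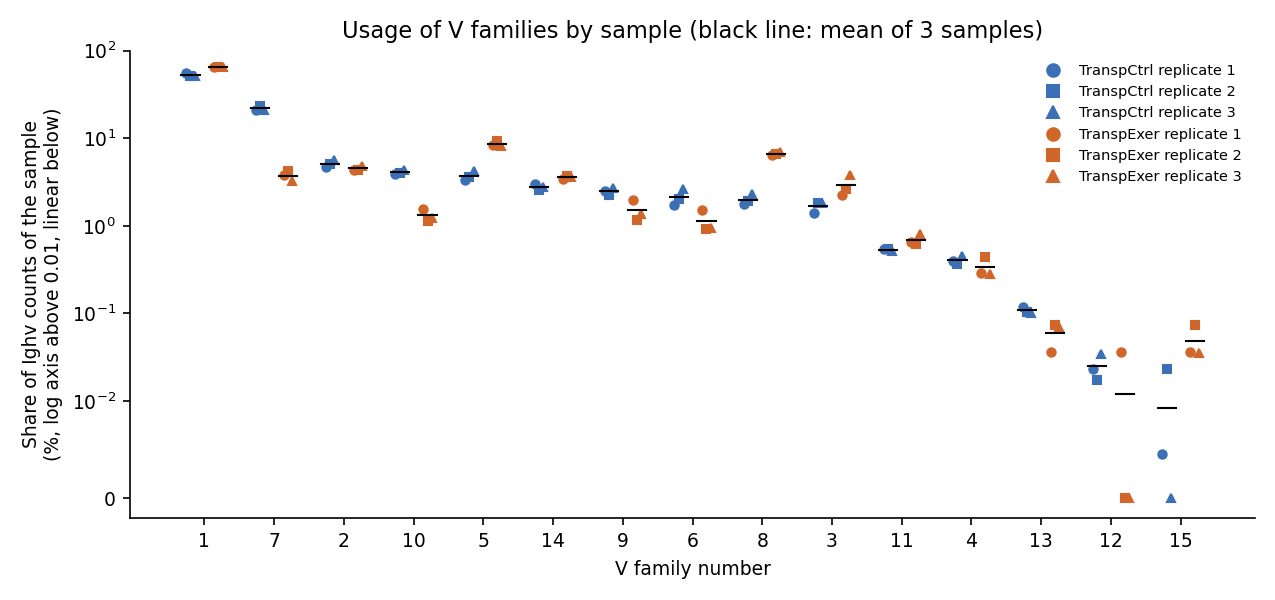
Share of each of the 15 V families with a count in the Ighv counts of its sample, in percent on an axis that is logarithmic above 0.01 and linear below, with 1 point per sample and a black line for the mean of 3 samples. The mean share of family 7 is 21.9% in TranspCtrl and 3.75% in TranspExer, while families 1, 5 and 8 have higher shares in all TranspExer samples.

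Evenness over families was measured by Pielou's index, the Shannon entropy of family shares divided by its largest possible value for 16 families, which is 1 when all are used equally. It was 0.54, 0.56 and 0.584 in TranspCtrl and 0.503, 0.5 and 0.504 in TranspExer. Family usage was thus less even in all TranspExer samples, with a mean difference of -0.0593 (exact two-sided permutation p = 0.1, the smallest this design allows). Without Ighv7-4 the difference was -0.0526. When the leading gene of each sample was left out it shrank to -0.00953, with overlap between the groups (exact permutation p = 0.7). The inverse Simpson number of families, which gives more weight to large families, was 2.98 ± 0.188 in TranspCtrl and 2.29 ± 0.0156 in TranspExer (SD, n = 3).

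At the level of genes the direction was the opposite. The effective number of genes, the number of equally used genes with the same entropy, was 35.9, 35.6 and 39.2 in TranspCtrl and 47.8, 46.3 and 46.6 in TranspExer. Gene usage was therefore more even in every TranspExer sample, by 9.99 genes on average (exact two-sided permutation p = 0.1). With the inverse Simpson number the values were 21.2 ± 2.05 and 34.1 ± 0.714 genes (SD, n = 3). Without Ighv7-4 the difference in the effective number was 3.24 genes. More genes had a count in TranspCtrl, 114, 103 and 108 against 89, 90 and 88, but at an equal number of 2704 Ighv counts per sample the expected number of genes was 87.1 ± 1.53 in TranspCtrl and 88.8 ± 1.24 in TranspExer (SD, n = 3), and the groups overlapped (exact permutation p = 0.2).

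**Figure D4:**
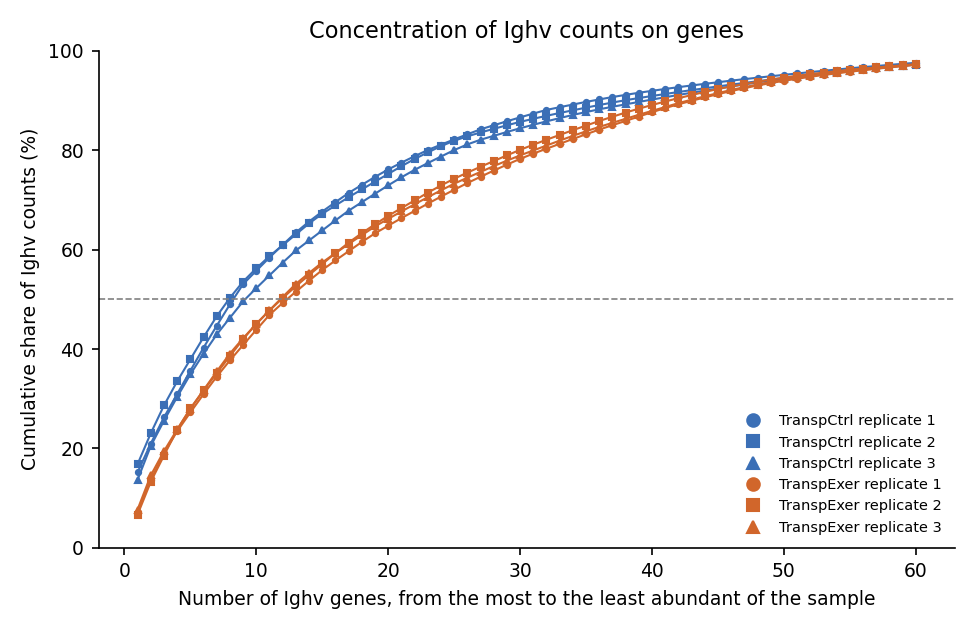
Cumulative share of Ighv counts (percent) against the number of Ighv genes, ordered from the most to the least abundant gene of each sample, with 1 line per sample and a dashed line at 50%. TranspCtrl samples reach 50% with 8 to 10 genes and TranspExer samples with 12 or 13.

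The leading gene differed between the groups. In TranspCtrl it was Ighv7-4, which held 15.2%, 16.8% and 13.7% of the Ighv counts. In TranspExer it was Ighv1-81 in replicates 1 and 3, with 7.2% and 7.71%, and Ighv1-34 in replicate 2, with 6.69%. The share of the leading gene was 8.04 percentage points lower in TranspExer, without overlap (exact two-sided permutation p = 0.1). Per length, Ighv7-4 and Ighv1-81 were again the highest of their groups, with Ighv7-4 at 460 CPM per kb in TranspCtrl and 6.94 in TranspExer, and Ighv1-81 at 52.9 and 29.9. By mean CPM per kb, Ighv7-4 went from rank 1 to rank 18, Ighv7-3 from rank 2 to rank 20, Ighv1-81 from rank 22 to rank 1 and Ighv8-8 from rank 44 to rank 5, whereas Ighv1-55 was at rank 3 in both groups. Ighv1-55 held 5.49% of Ighv counts in TranspCtrl and 5.12% in TranspExer, and its shares overlapped. Of the 78 tested genes, shares were higher in TranspExer without overlap for 30, lower for 26 and overlapping for 22. Thus 56 of 78 did not overlap. CPM values of 52.4% of all tested genes did not overlap either, but levels and shares are unlike measures. No background of shares was computed.

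**Figure D5:**
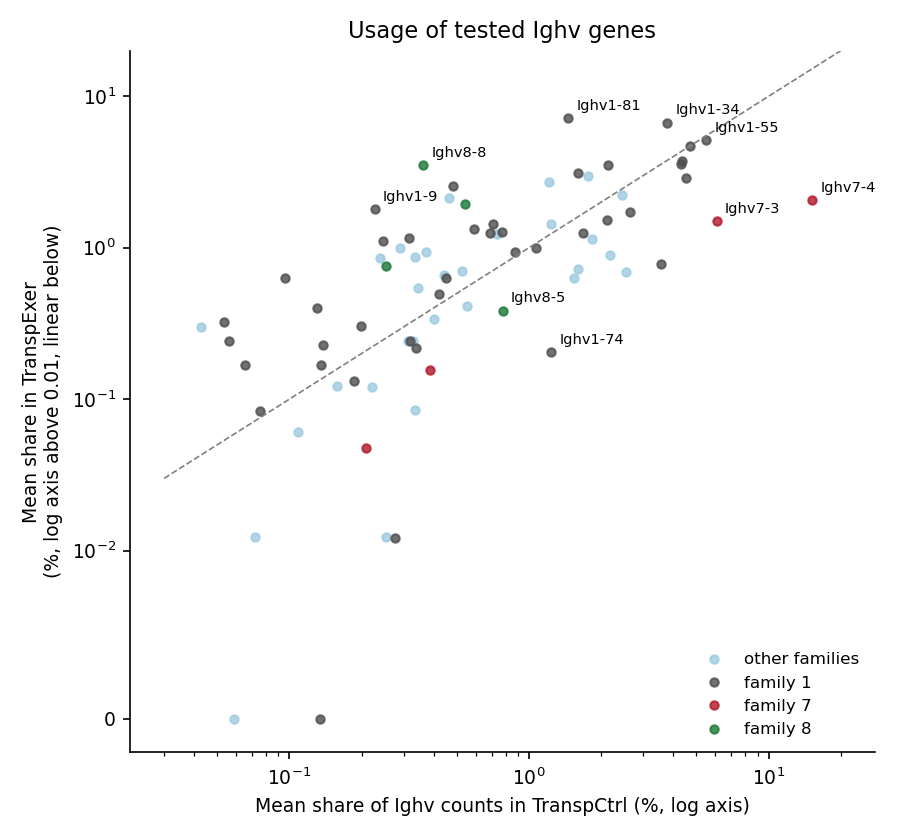
Mean share of each of the 78 tested Ighv genes in the Ighv counts of TranspCtrl (x axis, percent, logarithmic) and of TranspExer (y axis, percent, logarithmic above 0.01 and linear below), 1 point per gene, coloured by V family; the dashed line marks equal shares. Ighv7-4 and Ighv7-3 lie far below the line and Ighv1-81 and Ighv8-8 far above it, while Ighv1-55 lies next to it.

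Usage differed more between the groups than among samples of a group. The part of Ighv usage that differed, summed over genes, was 6.18% to 8.49% between TranspCtrl samples, 8.26% to 10.3% between TranspExer samples and 34.9% to 38.2% between samples of different groups. The chi-square per degree of freedom over Ighv genes was 3.26 to 6.59 within TranspCtrl and 26.8 to 43.2 between the groups. Larger values between than within groups were no particular trait of Ighv genes, since between the groups the value was 24.2 to 58.6 over Igkv genes and 58.5 to 146 over genes outside the immunoglobulin loci. Within TranspExer it was 1.12 between replicates 1 and 2, 1.20 between replicates 1 and 3 and 1.44 between replicates 2 and 3, with chi-square p-values of 0.242, 0.13 and 0.0139. This measure grows with the number of counts, so lower values in TranspExer, with its fewer Ighv counts, do not show that its samples were more alike. Kappa light chain variable genes (Igkv genes), which encode the partner chain, gave 1.55 to 1.96 within TranspExer and 2.27 to 11.7 within TranspCtrl.

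Genes were also placed by distance from Ighj1, the J segment that lies closest to the D and V segments. V segments near and far from it can be joined at unequal rates. Of the tested genes, the nearest 26 (158 to 833 kb) had a median log2 fold change of -3.36, the middle 26 (858 to 1690 kb) of -3.16 and the farthest 26 (1716 to 2570 kb) of -2.40. The nearest group held 36.8% of Ighv counts in TranspCtrl and 22.5% in TranspExer, and the farthest 34.8% and 44.2%. The lower share of the nearest group rested on Ighv7-4 and Ighv7-3, which lie in it. With these genes left out of both the group and the Ighv total, the nearest group held 19.7% in TranspCtrl and 19.6% in TranspExer, and the farthest 44.2% and 45.9%. With the full Ighv total kept, the other genes of the nearest group held 15.5% in TranspCtrl and 18.9% in TranspExer, the opposite direction. Across the 78 genes, Spearman's rho of log2 fold change with distance was 0.16, a description only, since these genes share libraries and neighbours share sequence.

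Ighv genes were compared with the other segments of the antibody chains. Of 160 Igkv genes, 83 were tested, 66 fell and 1 rose past both thresholds, with a median log2 fold change of -2.35. Over all tested genes, 5.28% fell and 3.5% rose past them. How many of the 83 met the filter on low counts only through TranspCtrl was not counted. The log2 ratio of Ighv to Igkv counts was -0.338, -0.615 and -0.738 in TranspCtrl and -1.5, -1.31 and -1.59 in TranspExer. The ratio was lower in every TranspExer sample, by 0.91 on the log2 scale, without overlap (exact two-sided permutation p = 0.1). Against the 3 lambda light chain variable genes (Iglv genes) the direction was the opposite. These had 670.1, 277 and 321 CPM in TranspCtrl and 23.8, 19.4 and 23.2 CPM in TranspExer, and the log2 ratio of Ighv to Iglv counts was higher by 1.10 in TranspExer, also without overlap (exact two-sided permutation p = 0.1). All 3 Iglv genes fell past both thresholds. Of the 7 tested heavy chain constant genes, 4 fell past both thresholds. Ighm, the constant region of IgM, fell from 2687 ± 1170 to 231 ± 8.31 CPM (SD, n = 3), which is -3.54 as log2FC. Ighg1, Ighg3 and Igha, for IgG1, IgG3 and IgA, had log2FC values of -3.27, -2.19 and -2.19 (edgeR adjusted p of 0.000389 or less for the 4 genes). Ighg2b and Ighg2c, for other IgG classes, had log2FC values of -0.39 and 0.58 (edgeR adjusted p = 0.214 and 0.0511), and Ighd, for IgD, was lower by less than 2-fold, at -0.86 (adjusted p = 0.000998). Ighe, for IgE, was too low to be tested. The log2 ratio of Ighv to the summed constant genes was lower by 0.53 in TranspExer, without overlap (exact two-sided permutation p = 0.1), but with Ighm as the only constant gene it was higher by 0.41. All 4 light chain constant genes (Igkc, Iglc1, Iglc2 and Iglc3) fell past both thresholds, with log2FC values of -1.78 to -4.34.

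Markers of the B lineage were measured in the same samples. Of 11 B cell genes, 6 fell past both thresholds, where 5.28% of all tested genes did. The summed level of the 11 was 317 to 341 CPM in TranspCtrl and 211 to 213 CPM in TranspExer. Ms4a1, which encodes CD20, had a log2 fold change of -1.25, whereas Pax5, the transcription factor that keeps B cell identity, had one of -0.35 that did not pass. Cr2, a complement receptor, had a log2FC of -0.15 and did not pass either. The values of Blnk, an adaptor of B cell receptor signalling, and Cd22, an inhibitory receptor, were positive, at 0.14 and 0.25, and did not pass both thresholds (edgeR adjusted p = 0.241 and 0.0444). Of 10 plasma cell genes, 6 fell past both thresholds, against the same 5.28% of all tested genes. The sum of the 10 was 2216 to 2497 CPM in TranspCtrl and 745 to 808 CPM in TranspExer. Jchain, which joins IgM and IgA into polymers, had a log2 fold change of -2.29, Mzb1, a helper of antibody folding, one of -3.57, and Tnfrsf17, the survival receptor BCMA, one of -3.26, while Sdc1, also made by other cells, had one of 0.14 that did not pass. No gene of these 2 lists had 0 counts in any sample, but Tnfrsf17 had only 13, 1 and 3 counts in the TranspExer samples. Rag1 and Rag2, which cut the locus for recombination, were at 2 counts or fewer in every sample, too low to be tested. Of the surrogate light chain genes of precursor B cells, Vpreb1, Vpreb2 and Igll1 had at most 4 counts in a sample and were not tested. Vpreb3 had 57, 60 and 59 counts in TranspCtrl, against 24, 18 and 23 in TranspExer, and fell with a log2 fold change of -1.31 (edgeR adjusted p = 0.00243). Ung, which removes uracil from DNA, had one of 0.56 that was under the fold threshold.

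Other cell types did not move as one. Past both thresholds, 3 of 10 stromal, 1 of 6 macrophage and 1 of 3 T cell genes fell, and 2 of 5 neutrophil and 3 of 4 endothelial genes rose. Over all tested genes, 5.28% fell and 3.5% rose past them. The T cell gene that fell, Cd3d, had 2, 6 and 12 counts in TranspExer. Cd3e and Cd3g, with log2FC values of -0.09 and -0.49, did not pass. The summed level was 1782 to 2680 CPM in TranspCtrl and 3286 to 3542 CPM in TranspExer for neutrophil genes, and 160 to 196 CPM and 510 to 552 CPM for endothelial genes. Both neutrophil genes that rose, Mpo and Elane, encode granule enzymes that are made by early granulocyte precursors, and their log2FC values were 2.47 and 2.16. S100a8, S100a9 and Ltf, which mark later stages, had -0.17, -0.07 and 0.07 and did not pass. The part of any of these cell types, B-lineage cells included, in the lower Ighv level was not tested.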

How the data were processed

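Bulk RNA-Seq of BM MSCs was analysed in 3 TranspCtrl and 3 TranspExer samples, grouped by the sample labels. The authors deposited estimated counts (expected counts per gene, not normalized, not all whole numbers) for 56980 genes. The genome build in the submitters' processing notes is mm10. The aligner, counting tool and annotation are not given in the sources used here. The study's methods name a TruSeq kit, and the labels a stranded mRNA kit. Counts were rounded and tested with edgeR 4.0.16 in R 4.3.3 (filterByExpr, TMM, quasi-likelihood test with a term for the group and no other), and p-values were adjusted by Benjamini-Hochberg over 15190 genes. Total and family levels were fitted in the same way on tables in which the Ighv rows were summed. CPM values used TMM-scaled libraries. SE of a log2 fold change (log2FC) was its size over the root of the F value. Usage, evenness and identity were computed in Python 3.11.15, single measures were compared by exact permutation tests, and V exons were aligned end to end by edit distance. Coordinates, gene types and sequences came from GENCODE M21 (GRCm38).

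The members, the lists and the tests were chosen with earlier results of these data known. Genes named are the 5 with the highest mean CPM, the 5 with the largest negative and up to 5 with the largest positive log2 fold change among tested genes, the most abundant of each family, the leading gene of each sample, those with the 3 smallest adjusted p-values, and the listed genes, some of which are not reported here. Ighv1-9, Ighv2-9-1, Ighv7-1 and Ighv7-2 were chosen after their values were seen. The alternatives were DESeq2 1.42.0, other normalizations and filters on low counts, a fold change of 2 tested in the model, the replicate number as a block, each sample left out, other evenness measures, and subsets of genes. Per-length shares and the removal of Ighv7-4 and Ighv7-3 were added after the data were seen. Tests and measures were tested on simulated data. Equal replicate numbers did not pair the samples, since their correlations were 0.0247, -0.00167 and 0.0416.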

Additional observations from a re-analysis of the deposited data

How the results depend on the processing

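Of the summary results, the Ighv to constant ratio and the share of the genes nearest to Ighj1 changed direction. The log2 difference of the ratio was -0.53 with all constant genes and 0.41 with Ighm alone. The share of the nearest genes differed by -14.3 percentage points, and without Ighv7-4 and Ighv7-3 by 3.43 of all Ighv counts or -0.0735 of the Ighv counts left; that of the farthest genes went from 9.44 to 1.64 of the counts left. The lower family evenness shrank to -0.00953, with overlapping groups, without the leading gene of each sample. The total level kept its direction and its call in every setting, while calls of single genes and families did not all hold. The number of Ighv genes lower past both thresholds ranged from 47 (fold change of 2 tested in the model) to 70 (no filter on low counts), and 0 genes were higher in any setting. With the fold tested in the model 19 of the 66 calls were lost, and positive log2 fold changes numbered 3 without TranspCtrl replicate 1, 2 without TranspExer replicate 2 and 5 with no filter on low counts, which tests more genes, in place of 1. The number of families lower past both thresholds ranged from 11 to 14. The log2 fold change of the Ighv total ranged from -3.39 to -2.65, the lowest drop being that without TranspCtrl replicate 1. The Ighv to Igkv difference ranged from -0.99 to -0.79 when each sample was left out in turn. With the replicate number as a block, 66 genes were lower and the log2 fold change of the total was -3.05; same-numbered samples did not deviate together, so the block has no known meaning. When each sample was left out, 62 to 65 of the 66 calls remained. With shares of counts per gene length, the share of the leading gene was lower by 5.80 percentage points and the effective number of genes higher by 8.53.

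Depth limits the TranspExer samples most. They held 2704 to 2827 Ighv counts each, and 8 of the tested genes were at or under the floor of 3 counts in every TranspExer sample. Permutation tests of 3 samples against 3 cannot pass 0.05, so the usage and evenness results rest on the lack of overlap between groups.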
